A study of Sus scrofa domesticus with 6 samples.

Results

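Indian hedgehog and parathyroid hormone-related protein form a feedback loop that sets how long a growth cartilage keeps proliferating. The genes of the loop were followed here in the mandibular condyle of miniature pig embryos. The members were fixed by name: the ligands IHH and PTHLH, the receptors PTH1R, PTCH1 and SMO, the transcription factors GLI1, GLI2 and GLI3, and the hedgehog-binding inhibitor HHIP. Of these 9 genes, 8 were found under their own name among 25322 rows of the deposited table, and GLI3 was found through a table that pairs gene IDs with symbols. That table of IDs also gave a second row for GLI1, which is described beside the named row.

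The condyle is the growing end of the lower jaw at the temporomandibular joint. The libraries were made from condylar cartilage at 45 days of gestation and at 85 days of gestation, 3 libraries per age, and total RNA was depleted of ribosomal RNA before sequencing. The labels give no strain beyond miniature pig, no sex and no treatment that differs between the ages, and describe the source as chondrocytes and osteocytes. They do not say whether each library is a separate embryo, so p-values measure only the spread between these libraries, which may be technical.

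In a growth cartilage, prehypertrophic chondrocytes secrete Indian hedgehog. The ligand binds PTCH1 on neighbouring and perichondrial cells, which releases SMO and lets GLI proteins switch on targets, among them PTCH1, GLI1 and HHIP themselves. Hedgehog signalling also maintains PTHLH in cells near the joint surface, and its product, PTHrP, acts through PTH1R on proliferating chondrocytes to hold back hypertrophy, which in turn limits the number of cells that make Indian hedgehog. In the condyle, the PTHLH-expressing cells lie in the fibrous and progenitor layers that cover the cartilage.

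Total counts per library ran from 12546729 to 16559616. Day 85 replicate 2 stood apart: its mean Spearman correlation across genes with the other libraries of its age was 0.934, against 0.956 to 0.984 for the other 5 libraries. Of 18 cartilage markers, 15 were matched and none was at 0 in all libraries. Their summed level was 15700 to 19540 CPM (counts scaled to library size by TMM) at day 45, and 1955, 6946 and 3703 CPM in day 85 replicates 1, 2 and 3. COL2A1, the main cartilage collagen, was at 28.8, 1074 and 50.6 CPM in the day 85 libraries, so the labelled tissue was only weakly marked by it in replicates 1 and 3. The 12 matched skeletal muscle markers summed to 37950, 2829 and 33720 CPM at day 85 and to 4157 to 9280 CPM at day 45. The 10 osteoclast markers summed to 1903, 13530 and 2329 CPM at day 85 and to 308 to 1321 CPM at day 45. The 11 matched endothelial markers summed to 1957, 1342 and 1444 CPM at day 85, against 580 to 813 CPM earlier, and edgeR called 7 of the 11 higher. It called 2 of 7 red cell markers higher and 1 of 6 epithelial markers lower. It called 4 of 15 cartilage markers lower. It called 0 of 11 tested muscle markers and 0 of 10 osteoclast markers, though 5 and 9 of these were higher at an unadjusted p under 0.05. Over all 15022 genes tested, it called 586 higher and 400 lower. Before adjustment, 2370 of the 15022 genes had p below 0.05 with a rise at day 85, and 1997 with a fall. None of 7 osteoblast markers or of 6 tested markers of the perichondrium, fibrous layer and tendon was called by edgeR, with 2 higher among the former and 2 lower among the latter at an unadjusted p under 0.05; DESeq2 also called 2 higher and 2 lower. Of the osteoblast log2 fold changes, 6 were positive and 1 negative, with a median of 0.47. All 6 of the perichondrium list were negative, with a median of -0.71. In 3 of these 6 the ages did not overlap, beside 17.6% of all tested genes lower in that way. The 7 matched markers of that list summed to 5250, 6878 and 5379 CPM at day 45 and to 1872, 3555 and 4687 CPM at day 85. In bulk tissue, fewer cells of a type and less RNA per cell cannot be told apart, and the part of these marker differences in the results below was not tested.

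Most of the loop genes stood lower at day 85 than at day 45, though few passed the test, and PTHLH and PTCH1 overlapped between the ages. All 3 day 85 libraries lay below all 3 day 45 libraries for 7 of the 9 genes: IHH, PTH1R, SMO, GLI1, GLI2, GLI3 and HHIP. This held for 17.6% of the 15022 genes tested. With all libraries, edgeR's quasi-likelihood test called 1 of the 9, SMO, lower (adjusted p under 0.05), while 2.66% of all tested genes were called lower and 6.56% in either direction. The 7 genes whose ages did not overlap were also the 7 with an unadjusted p under 0.05, a level that 13.3% of tested genes reached in the downward direction. DESeq2 called 6 of the 9 lower, against 10.5% of the genes that it adjusted. When day 85 replicate 2 was left out, edgeR called 8 of the 9 lower, against 10% of genes, and without each of the other 5 libraries it called 0 of the 9, with all-gene shares called lower of 0%, 0% and 0.0391% without day 45 replicates 1, 2 and 3 and of 0.0196% and 0.164% without day 85 replicates 1 and 3. In the same order, 6, 2, 5, 6 and 3 of the 9 had an unadjusted p under 0.05, all lower, beside 9.28%, 8.66%, 11.6%, 11.3% and 9.39% of all genes. The fit without day 85 replicate 2 keeps the day 85 libraries with the lowest summed cartilage markers and the highest summed muscle markers. Whether this shaped its calls was not tested. The median log2 fold change, day 85 over day 45, was -0.66 over the 9 genes and 0.02 over all tested genes.

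**Figure D1:**
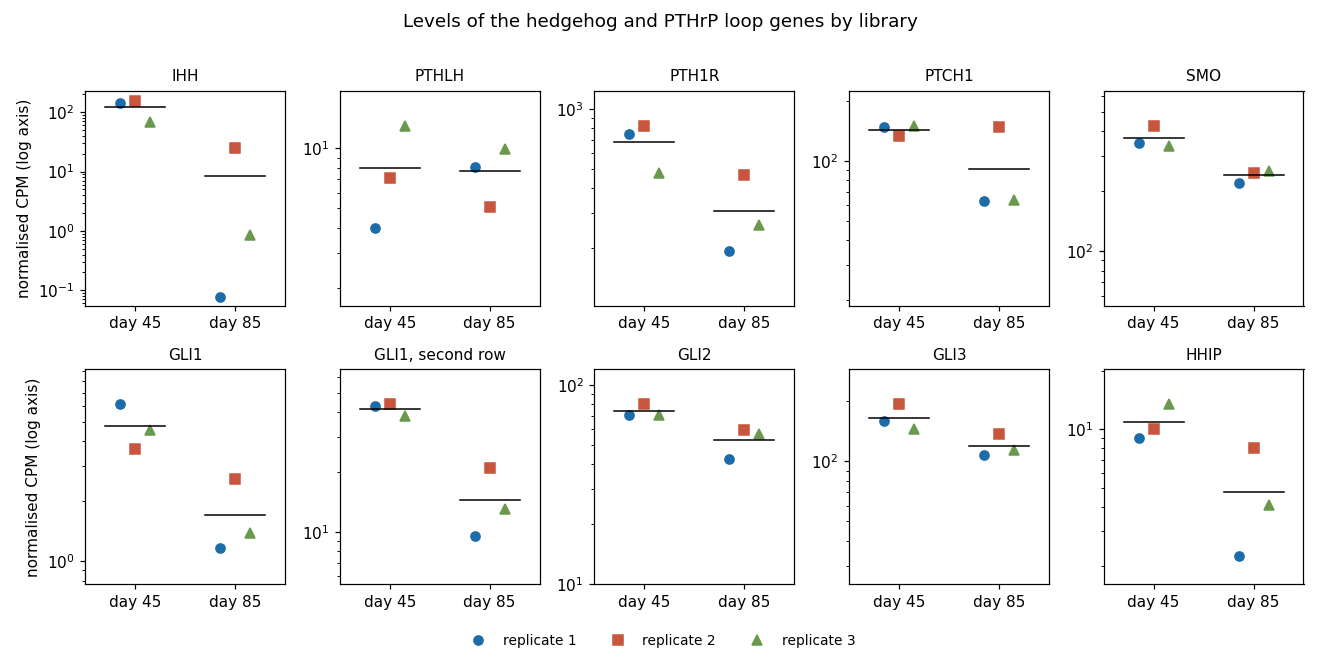
Normalised CPM (log axis) of the loop genes in each library at day 45 and day 85; points are libraries, marked by replicate number, and lines are means of 3 libraries. At day 45 IHH stood between 68.4 and 155 CPM, but day 85 replicates 1 and 3 stood at 0.0773 and 0.857 CPM, while PTHLH overlapped between the ages and PTCH1 in day 85 replicate 2 lay within its day 45 range.

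IHH encodes the secreted ligand of the loop. The row spans positions 134122695 to 134129391 of chromosome 15 as the authors' table numbers them, on a build that the sources used here do not state. IHH had 2346, 2144 and 1045 counts in day 45 replicates 1, 2 and 3, or 144, 155 and 68.4 CPM. In the day 85 libraries it had 1, 369 and 13 counts, or 0.0773, 24.6 and 0.857 CPM. The ages did not overlap, and on a log scale the spread at day 85 was wider than at day 45. The exact 95% Poisson interval of the single count in day 85 replicate 1 reaches 0.431 CPM and that of the 13 counts in replicate 3 runs from 0.456 to 1.47 CPM, so counting error does not bridge the distance to replicate 2, whose interval starts at 22.2 CPM. These intervals cover counting error only.

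The fitted log2 fold change of IHH was -3.83 ± 1.50 (SE), a 14.3-fold difference between 122 ± 47.0 and 8.51 ± 13.9 CPM (SD, n = 3 libraries per age). It did not pass the test (edgeR adjusted p = 0.157). Day 85 replicate 2 decided this: without it the log2 fold change was -7.92 ± 0.72 (SE; adjusted p = 0.00278), and without each of the other libraries the adjusted p lay between 0.218 and 0.308. Replicate 2 also had the highest summed cartilage markers of the day 85 libraries, 6946 CPM against 1955 and 3703 CPM. Its summed muscle markers were the lowest, 2829 CPM against 37950 and 33720 CPM. The part of this in the IHH difference was not tested. The size also depends on the method: with the same libraries it was -5.41 (42.6-fold) with the replicate number as a block, -6.29 (78.3-fold) in limma-voom and -5.83 (56.7-fold) in limma-trend, none of them past the threshold (adjusted p = 0.0809, 0.0553 and 0.0601). With all libraries, the 11 tested hypertrophic markers lay in both directions, with 5 negative and 6 positive log2 fold changes, a median of 0.07 and 1 called, VEGFA, which was higher. Without day 85 replicate 2 their median was -0.84. In that fit edgeR called 3 of the 11 lower and 1 higher, beside 10% and 12.3% of all tested genes. The hypertrophic collagen COL10A1 stood at 234, 334.5 and 93.7 CPM at day 45 and at 2.24, 466 and 3.165 CPM at day 85 (edgeR adjusted p = 0.880). PANX3 was 7.02-fold lower without overlap (edgeR adjusted p = 0.0551), while MMP13, SPP1 and VEGFA were higher without overlap.

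PTHLH encodes PTHrP, the other ligand. Its row lies on chromosome 5 at 49160270 to 49172386. It stood at 3.98, 7.07 and 13.0 CPM at day 45, from 65, 98 and 199 counts, and at 8.12, 5.07 and 9.89 CPM at day 85, from 105, 76 and 150 counts. The ages overlapped, and every day 85 library lay inside the day 45 range. The log2 fold change was -0.06 ± 0.46 (SE; edgeR adjusted p = 0.946), and its 95% interval, from -1.15 to 1.03, leaves room for a difference of up to 2.22-fold down or 2.05-fold up. Its sign changed when libraries were left out, with log2 fold changes from -0.40 to 0.48.

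PTH1R, the G protein-coupled receptor for PTHrP, lies on chromosome 13 at 32998084 to 33023636. It was the most abundant of the 9 genes per length at both ages. Its levels were 752, 824 and 478 CPM at day 45. The day 85 libraries stood at 193, 466 and 262 CPM. The highest day 85 library, replicate 2, came close to the lowest day 45 library without crossing it. The log2 fold change was -1.16 ± 0.37 (SE), a 2.23-fold difference that did not pass (edgeR adjusted p = 0.103). DESeq2 called it (adjusted p = 0.00483), and so did edgeR without day 85 replicate 2, where the log2 fold change was -1.59 (adjusted p = 0.0107). Without each of the other libraries the adjusted p ran from 0.120 to 0.261.

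PTCH1, the hedgehog receptor that is also a hedgehog target, lies on chromosome 10 at 30847386 to 30915236. At day 45 it stood at 148, 133 and 150 CPM. At day 85 it stood at 62.9, 147 and 63.3 CPM. Replicates 1 and 3 were alike and lay below every day 45 library, while replicate 2 was within the day 45 range. With all libraries the log2 fold change was -0.66 ± 0.35 (SE; edgeR adjusted p = 0.261). Without day 85 replicate 2 it was -1.19 ± 0.12 (SE; adjusted p = 0.00236), and without each of the other libraries the adjusted p was 0.389 or more.

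SMO, the membrane transducer that PTCH1 holds in check, lies on chromosome 18 at 20519920 to 20548818. It fell 1.55-fold, from 352, 428 and 338 CPM at day 45 to 222, 247 and 254 CPM at day 85. The ages did not overlap, and here day 85 replicate 2 lay between the other libraries of its age. The log2 fold change was -0.63 ± 0.14 (SE; edgeR adjusted p = 0.0467). The call held without day 85 replicate 2 (adjusted p = 0.0263) and was lost without each of the other libraries, where the adjusted p ran from 0.0836 to 0.156. In those fits at most 0.164% of all genes were called lower, and the log2 fold change of SMO stayed between -0.70 and -0.52. DESeq2 also called it (adjusted p = 0.000105).

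GLI1 is the transcriptional activator whose own transcription follows hedgehog input. The row that the table names GLI1 spans only 1210 bases, on chromosome 5 at 24800132 to 24801341, and holds 100, 51 and 70 counts at day 45 and 15, 39 and 21 at day 85. The second row, ENSSSCG00000000443, lies on the same chromosome at 24834493 to 24838902 and holds 702, 604 and 580 counts and then 123, 314 and 198. Per length both rows stood at like levels: 14.5 ± 3.72 and 12.8 ± 0.264 FPKM (SD, n = 3) at day 45, and 4.99 ± 2.00 and 4.33 ± 1.53 FPKM at day 85. Whether reads are split between them was not tested.

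In both GLI1 rows the ages did not overlap, with day 85 replicate 2 the highest of its age. The named row went from 6.12, 3.68 and 4.58 CPM to 1.16, 2.60 and 1.38 CPM, with a log2 fold change of -1.48 ± 0.38 (SE), just outside the threshold (edgeR adjusted p = 0.0630). The deeper second row fell 2.86-fold, from 43.0, 43.6 and 38.0 CPM to 9.51, 20.9 and 13.1 CPM, with a log2 fold change of -1.51 ± 0.28 (SE; edgeR adjusted p = 0.0359). Its call held without day 85 replicate 2 (adjusted p = 0.00211) and was lost without each of the others, at 0.0649 to 0.138. At most 0.164% of all genes were called lower without those other libraries. With 1 library left out, the log2 fold change of the second row lay between -1.87 and -1.32. The named row also passed without day 85 replicate 2 (adjusted p = 0.0116).

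GLI2, the main hedgehog-dependent activator, and GLI3, the main repressor in the absence of ligand, differed less between the ages. GLI2, on chromosome 15 at 35267703 to 35357027, stood at 70.7, 79.6 and 70.1 CPM in the younger libraries, against 42.4, 59.3 and 56.8 CPM in the older ones. GLI3, on chromosome 18 at 57791952 to 57804346, stood at 159, 193 and 145 CPM and then 108, 138 and 115 CPM. Neither gene overlapped between the ages. The log2 fold changes were -0.47 ± 0.16 (SE) for GLI2 and -0.47 ± 0.16 (SE) for GLI3, and neither passed (edgeR adjusted p = 0.108 and 0.114). DESeq2 called both (adjusted p = 0.0137 and 0.0154), and edgeR without day 85 replicate 2 did too (0.0409 and 0.0325).

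HHIP, a membrane protein that binds and sequesters hedgehog ligands and is itself a target, had the lowest mean level per length of the 9 genes at day 45, where its range overlapped that of PTHLH. It lies on chromosome 8 at 88870162 to 88941208. At day 45 its levels were 9.06, 10.03 and 13.5 CPM. At day 85 they were 2.24, 8.07 and 4.09 CPM, from 29, 121 and 62 counts. The ages did not overlap, though day 85 replicate 2 came close to the day 45 libraries. The log2 fold change was -1.17 ± 0.45 (SE; edgeR adjusted p = 0.145), and -1.77 without day 85 replicate 2 (adjusted p = 0.0126).

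**Figure D2:**
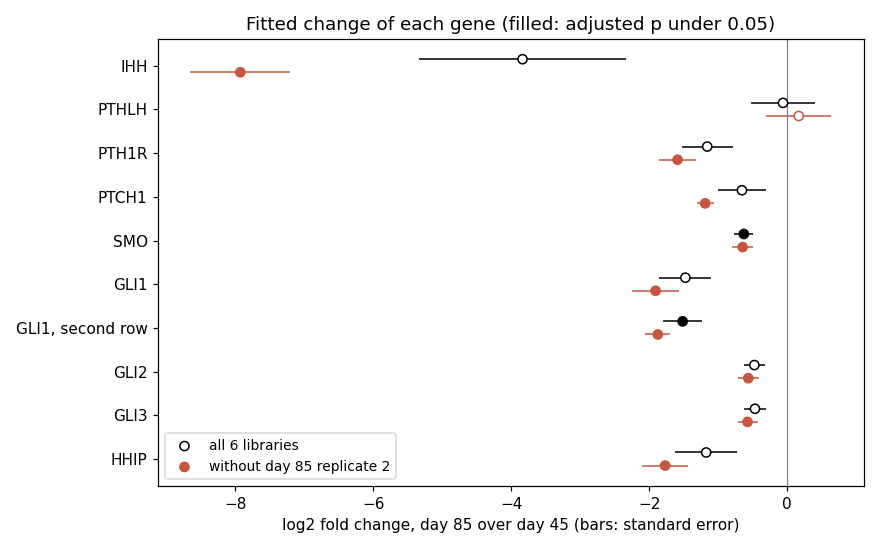
Fitted log2 fold change, day 85 over day 45, of each loop gene with its standard error, for all 6 libraries (black) and without day 85 replicate 2 (red); filled points passed the test. SMO and the second GLI1 row passed with all libraries; without day 85 replicate 2 every row but PTHLH did, and IHH moved from -3.83 to -7.92.

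Per length, the order of the genes changed most for IHH. On the FPKM scale (counts scaled to gene length and library total) PTH1R led at day 45 with 334 ± 73.1 (SD, n = 3), followed by SMO with 85.1 ± 7.89 and IHH with 47.8 ± 16.4 FPKM. Next was GLI3 at 26.3 ± 2.73 FPKM and its range overlapped that of IHH. PTCH1, GLI1 and GLI2 followed at 18.8, 14.5 and 12.5 FPKM, each overlapping its neighbour among these genes. PTHLH and HHIP came last at 6.32 ± 3.97 and 4.83 ± 1.33 FPKM and overlapped each other. At day 85 PTH1R (146 ± 60.1 FPKM) and SMO (53.9 ± 2.96 FPKM) still led and were separate from each other and from GLI3 (18.6 ± 1.49 FPKM). IHH had moved from the third to the eighth place, at 3.13 ± 5.12 FPKM, and every neighbouring pair from GLI3 down overlapped.

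The levels of hedgehog targets were then set beside the ligand within each library, which does not depend on how libraries are scaled. The log2 ratio of PTCH1 to IHH counts was 0.04, -0.21 and 1.14 in the day 45 libraries, with 0.5 counts added to each gene. In the day 85 libraries it was 9.08, 2.58 and 6.15, a difference of 5.62 log2 units or 49.2-fold. That size rests on few IHH counts: it was 16.5-fold without day 85 replicate 1, where IHH had 1 count, and 157-fold without day 85 replicate 2. The log2 ratio of GLI1 to IHH was higher by 4.88, and 4.81 with the second GLI1 row, and that of HHIP to IHH by 5.05. In all 3 ratios every day 85 library lay above every day 45 library, and the exact two-sided permutation p was 0.1, the smallest that 3 libraries against 3 can give (0.125 after adjustment over 5 ratios). IHH was thus lower at day 85 by a larger factor than its target transcripts, in these libraries. The 3 ratios share IHH as denominator, so each carries the same fall of IHH and they are not separate results. A gene that did not differ between the ages would also stand higher relative to IHH. How many of all genes separate the ages in this way was not counted.

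The other ratios differed by less. The log2 ratio of PTHLH to PTH1R was -7.55, -6.86 and -5.20 in the younger libraries, against -4.57, -6.51 and -4.72 in the older ones, and the ages overlapped (exact permutation p = 0.2). GLI1 to GLI3 had log2 ratios of -4.69, -5.70 and -4.98, then -6.50, -5.71 and -6.34. These did not overlap, but the values of replicate 2 at the 2 ages were almost the same (exact permutation p = 0.1, adjusted 0.125). With the second GLI1 row, the values were -1.89, -2.15 and -1.94 and then -3.50, -2.71 and -3.13, a lower ratio in every day 85 library by a wider margin.

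**Figure D3:**
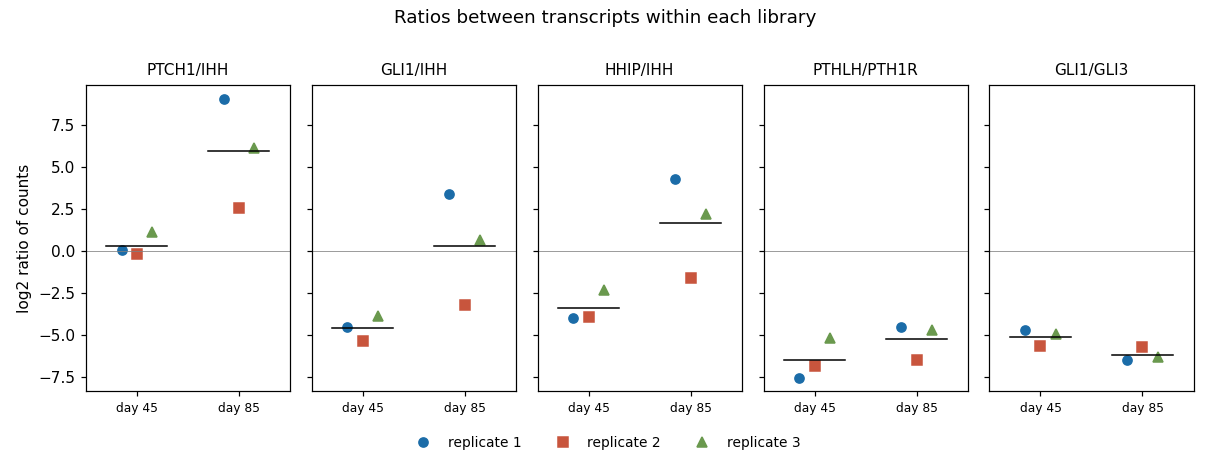
Log2 ratios of counts between loop genes within each library at day 45 and day 85; points are libraries and lines are means of 3. PTCH1, GLI1 and HHIP stood higher relative to IHH in all day 85 libraries, whereas PTHLH to PTH1R overlapped between the ages.

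IHH is a transcript of chondrocytes, and chondrocytes and osteoblasts share PTH1R. Each gene was also expressed relative to 15 cartilage markers. The mean log2 CPM of these markers was 7.88, 7.80 and 7.62 in the younger libraries, against 3.44, 6.31 and 4.26 in the older ones, a mean difference of -3.09. Relative to that mean, IHH was still lower at day 85: -0.72, -0.52 and -1.52 in the younger libraries against -6.55, -1.69 and -4.43 in the older ones, a difference of -3.30 log2 units. The other genes went the opposite way, which follows from the fall of the markers for any gene that fell less than they did. The median log2 fold change over all tested genes was 0.02, so a gene at that median would also stand higher relative to the markers. How many of all genes separate the ages in this way was not counted. PTH1R was higher relative to the markers by 1.88 log2 units, PTCH1 by 2.32, SMO by 2.47, GLI1 by 1.57, GLI2 by 2.60, GLI3 by 2.63 and HHIP by 1.75. In IHH and in these 7 genes the ages did not overlap (exact permutation p = 0.1 each, the smallest possible, and 0.113 adjusted over 9 genes). PTHLH overlapped, with a difference of 3.14 and an exact permutation p of 0.2. With SOX9, the transcription factor of chondrocytes, as the only reference, the difference was -4.26 for IHH, 0.92 for PTH1R and 0.62 for GLI1. Each of the 15 markers was then taken alone, a choice made after seeing the data. The IHH difference was negative against 14 of them, 9 of these without overlap between the ages, and positive against MATN1, a cartilage matrix protein, at 1.53 with overlap. Its range was -6.34 to 1.53, so both the size and the direction depend on the marker chosen.

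**Figure D4:**
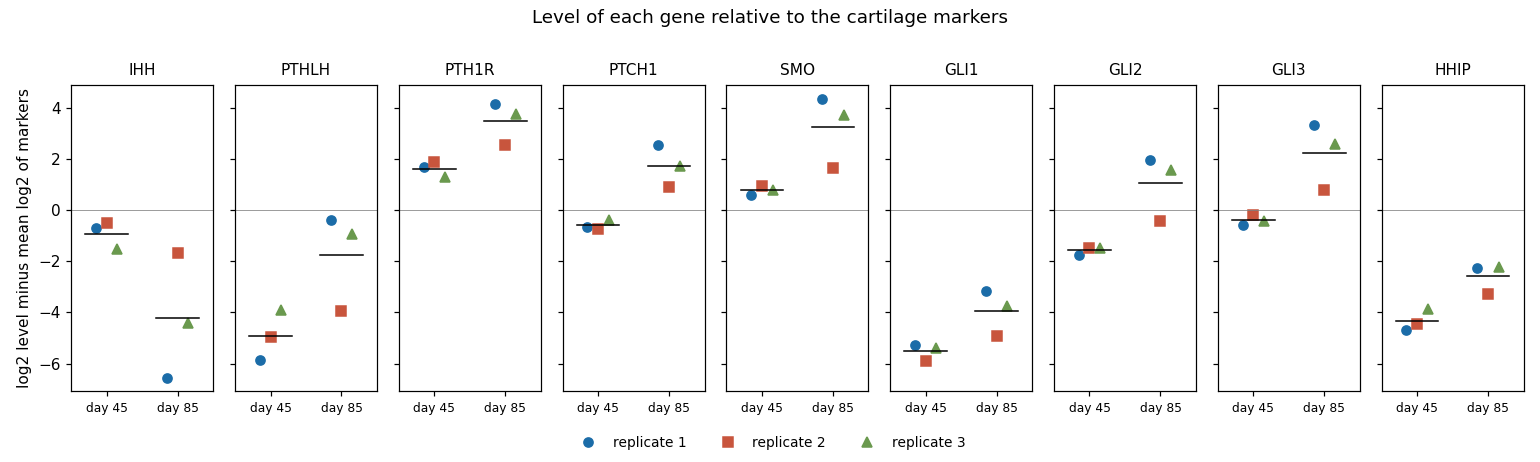
Log2 level of each loop gene minus the mean log2 level of 15 cartilage markers in the same library; points are libraries and lines are means of 3. IHH lay lower at day 85, PTHLH overlapped, and the other 7 genes lay higher in all day 85 libraries, and day 85 replicate 2 was the day 85 library nearest to the day 45 values in each of these 8 genes.

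Few genes of the surrounding pathway passed the test. Of 83 further genes listed for hedgehog and PTHrP signalling, 72 matched a row and 68 were tested. edgeR called 1 lower and 2 higher, with a median log2 fold change of 0.12, against 2.66% called lower and 6.56% in either direction among all tested genes. Without day 85 replicate 2 it called 6 lower and 9 higher, where 10% and 12.3% of all tested genes were called in those directions.

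Among genes of hedgehog ligands, release and reception, 0 of 8 tested passed in edgeR, while 3 had an unadjusted p under 0.05, all lower, and DESeq2 called 3 lower. The most abundant per length were the co-receptors BOC and CDON and the glypican GPC3, a cell surface proteoglycan that binds hedgehog. GPC3 stood at 269, 265 and 259 CPM, then 184, 113 and 194 CPM, without overlap (edgeR adjusted p = 0.0925). BOC had a log2 fold change of -0.48 and CDON of -1.06 (adjusted p = 0.204 and 0.115). The other hedgehog ligands are named here after their values were seen. SHH was at 0.131 CPM or less in every library and was not tested. DHH, the ligand of Schwann cells and some endothelium, was at 4.59, 0.0721 and 1.83 CPM in the younger libraries, against 2.63, 24.1 and 2.31 CPM in the older ones (edgeR adjusted p = 0.326).

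Of 20 tested genes of transduction and GLI control, 1 passed in edgeR. ARRB1, a beta-arrestin that takes part in SMO trafficking and in receptor desensitisation, rose 1.96-fold, from 21.6, 28.7 and 28.4 CPM to 46.6, 65.5 and 42.1 CPM (edgeR adjusted p = 0.0447). It also passed without day 85 replicate 2 (adjusted p = 0.0197) and lost the call when any other library was left out, with the replicate number as a block and in limma-voom. Leaving out any library but day 85 replicate 2 gave 0 to 93 genes called higher over all. The most abundant of the rest per length were the kinase CSNK1A1, the ciliary kinesin KIF7 and the second beta-arrestin ARRB2, with log2 fold changes of 0.14, -0.09 and 0.46 (adjusted p = 0.467, 0.706 and 0.124). The list's median was 0.07.

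Other genes known as hedgehog targets lay in both directions. Of 14 tested, 0 passed in edgeR, 2 had an unadjusted p under 0.05, both lower, and DESeq2 called 2 lower and 0 higher. The list held 7 negative and 7 positive log2 fold changes, with a median of 0.16. RAB34, a small GTPase of ciliogenesis, stood at 85.0, 100 and 71.5 CPM and then 34.6, 66.8 and 47.4 CPM (edgeR adjusted p = 0.105), and it was the 1 gene of the list that passed without day 85 replicate 2 (adjusted p = 0.0123). The Wnt antagonist SFRP1 had a log2 fold change of -1.08 ± 0.53 (SE; adjusted p = 0.235). The cyclin CCND1 had -0.14 ± 0.40 (SE; adjusted p = 0.837).

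In the PTHrP receptor signalling list, 1 of 18 tested genes passed. ADCY9, an adenylyl cyclase, which makes the cyclic AMP that PTH1R signals through, rose 1.67-fold from 8.14, 10.5 and 9.62 CPM to 16.2, 14.7 and 16.2 CPM (edgeR adjusted p = 0.0449). It passed without day 85 replicate 2 (adjusted p = 0.0212). It lost the call without each of the others, with upper-quartile scaling, with library totals alone, with no filter and in limma-trend. As for ARRB1, few genes were called higher over all in the fits that left out another library. GNAS, which encodes the stimulatory G protein subunit that couples PTH1R, stood at 2585 ± 192 and 2497 ± 499 CPM (SD, n = 3; adjusted p = 0.884). The protein kinase A regulatory subunit PRKAR1A and the receptor partner RAMP2 had log2 fold changes of 0.55 and 0.69 (adjusted p = 0.123 and 0.0676). Here 14 of 18 log2 fold changes were positive, with a median of 0.38; over all tested genes 51.8% were positive. Without day 85 replicate 2, edgeR called 5 of the list higher: ADCY9, PRKAR1A, RAMP2 and the cyclic AMP phosphodiesterases PDE4D and PDE4B.

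Among PTHrP effectors in chondrocytes, 1 of 10 tested genes passed. ZNF521, a zinc finger protein that acts downstream of PTHrP to restrain RUNX2, fell 1.93-fold from 105, 136 and 118 CPM to 48.8, 59.6 and 77.9 CPM (edgeR adjusted p = 0.0431). Without day 85 replicate 2 its edgeR adjusted p was 0.0294. The call was lost without each of the others, where at most 0.164% of all genes were called lower. The most abundant per length were the histone deacetylase HDAC5, the phosphatase subunit PPP2CA and the transcription factor MEF2C, with log2 fold changes of -0.17, -0.28 and 0.12 (adjusted p = 0.571, 0.228 and 0.802). HDAC4, which holds MEF2C in check when PTHrP signals, was not called by edgeR with all libraries; without day 85 replicate 2 its log2 fold change was 0.41 (edgeR adjusted p = 0.0377), and the transcription factor MEF2D was also called, at 0.67 (adjusted p = 0.00914).

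**Figure D5:**
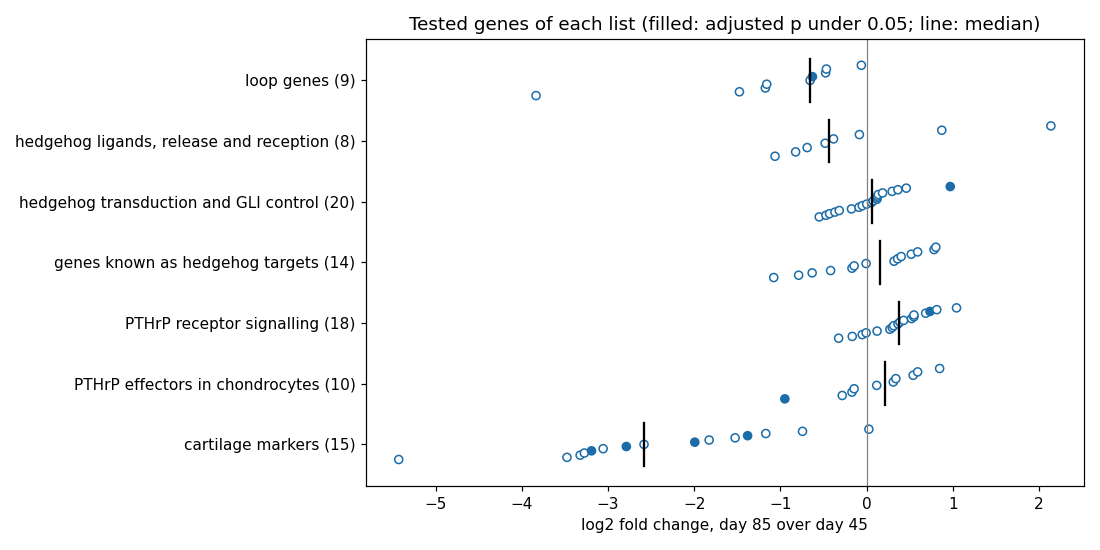
Log2 fold change, day 85 over day 45, of each tested gene of the loop, of 5 pathway lists and of the cartilage markers; filled points passed edgeR's test, vertical lines are medians, and the number of tested genes follows each name. The loop genes had a median of -0.66, the pathway lists had medians from -0.43 to 0.38 and the cartilage markers had a median of -2.58.

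The genes whose log2 CPM ran most nearly parallel to a member over the 6 libraries were taken from 8281 named genes with a mean of at least 10 CPM. For IHH these were SF3B3, BTBD3, PRDX1, ALPK1 and ALDH1B1, with Pearson's r from 0.997 to 0.999. The shape was shared but not the size: SF3B3, a splicing factor subunit, moved only between 39.4 and 54.1 CPM. As many as 184 genes ordered the 6 libraries exactly as IHH did. For PTCH1 the nearest were DPYSL2, IL16, GALK2, MOGS and ACTR3 (r from 0.992 to 0.998), genes at which day 85 replicate 2 stood near the day 45 libraries too. For PTHLH they were GEM, PAPD5, HP1BP3, NOL8 and ATP2C1 (r from 0.957 to 0.975). These correlations describe 6 libraries that share an age in groups of 3, and carry no test.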

How the data were processed

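RNA from mandibular condyles of miniature pig embryos was sequenced in 6 libraries, grouped by the age in their titles. Per the labels' protocols, libraries were ribosomal-depleted and kept the strand of the RNA; the submitters' processing notes name HISAT2. How reads were counted (program, strand), and on which build and annotation, is not given in the sources used. The authors deposited read counts and FPKM values per gene in 1 table, per the file headers; over 10748 genes the deposited FPKM was the count over the library total times 1 factor per gene, within 0.00179%. No member's position overlapped its place in RefSeq's Sscrofa11.1 table.

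The authors' table names 16162 rows, and an ID list named 1774 more; of rows that share a name, the one with most counts was used. Members and lists were chosen with earlier results of these data known. The count test was edgeR's (version 4.0.16, R 4.3.3), after filterByExpr with a minimum count of 10 and TMM scaling: robust quasi-likelihood test, age as the only factor, Benjamini-Hochberg adjusted p under 0.05 over all tested genes. The SE is the log2 fold change divided by the square root of F; the test was tried on simulated data. Levels are TMM-normalised CPM. Ratios used 0.5 added counts and exact two-sided permutation tests. Named were all members, each pathway list's called genes and its 3 most abundant by FPKM, and the 5 genes most like IHH, PTHLH and PTCH1. Alternatives were other scalings and filters, DESeq2 1.42.0, limma 3.58.1 (voom, and trend on log2 of FPKM plus 0.1), a replicate block and leaving out each library. No table here gave the sequences of these genes or proteins, so none is shown. A result on Schwann cell markers is not reported here.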

Additional observations from a re-analysis of the deposited data

How the results depend on the processing

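All members kept a negative log2 fold change under all alternatives run, except PTHLH. Over all genes edgeR called 400 lower and 586 higher; with library totals alone as the scaling it called 598 lower and 437 higher, and DESeq2 called 1764 and 2052. Leaving out 1 library gave 0 to 1528 lower and 0 to 1884 higher. In that setting the loop genes called lower ran from 0 to 8 of 9, with 8 only without day 85 replicate 2, which also gave the highest counts over all genes. DESeq2 called 6 loop genes and limma-trend on FPKM 2. SMO lost its call and GLI1's second row kept it (adjusted p = 0.0666 and 0.0448) with the replicate number as a block, which called 0 loop genes and 217 genes lower over all. The deviations of same-numbered libraries correlated at 0.000, 0.230 and 0.001, and those of differently numbered libraries at -0.257 to 0.256. So few libraries cannot tell whether the numbers pair them.

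In the ligand and reception list (0 lower, 0 higher), library totals alone and the replicate block gave 1 lower, DESeq2 3 lower, and leaving out 1 library 0 to 2 lower and 0 to 1 higher. In the transduction list (0 lower, 1 higher), the replicate block and limma-voom gave 0 higher, DESeq2 2 lower and 2 higher, and leaving out 1 library 0 to 2 lower and 0 to 1 higher. Among other targets (0 and 0), DESeq2 gave 2 lower and leaving out 1 library 0 to 1. In the PTHrP receptor list (0 lower, 1 higher), upper-quartile scaling, library totals alone, no filter and limma-trend gave 0 higher, DESeq2 5, and leaving out 1 library 0 to 5. Among PTHrP effectors (1 lower, 0 higher), leaving out 1 library gave 0 to 1 lower and 0 to 2 higher, and DESeq2 2 higher. The causes were not tested.

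Relative to SOX9 alone, the differences were 0.92 for PTH1R, 1.36 for PTCH1, 0.62 for GLI1, 1.65 for GLI2, 1.68 for GLI3 and 0.80 for HHIP. Relative to single markers, a choice made after seeing the data, the IHH difference was -1.20 with COL2A1, -5.08 with SOX5, -6.34 with SOX6, -5.17 with COMP and, reversed, 1.53 with MATN1. The causes were not tested. Adding 2 counts or leaving out 1 library moved no ratio and no level relative to cartilage by more than the spread between replicates. That spread was wide: for PTCH1 to IHH the SD at day 85 was 3.26 log2 units. A replicate block cannot move these differences, since the mean of same-number differences equals the difference of the age means. By Spearman's correlation of 1, 3 of the 5 genes nearest to IHH, 2 of those nearest to PTHLH and 1 of those nearest to PTCH1 remained. Genes under about 1 CPM rest on few counts, as IHH does in day 85 replicates 1 and 3.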
